A study of Rattus norvegicus with 8 samples.

Results

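The transcripts of 34 ribosome biogenesis factors were followed in rat muscle RNA after testosterone propionate. Probes were assigned to them by gene name. The set holds nucleolar scaffold proteins, factors of RNA polymerase I transcription, proteins of small nucleolar RNA (snoRNA) particles, and assembly factors of the small and large ribosomal subunits. Of the 34 factors, 32 had a probe of that name on the array and 26 were measured, out of 10864 measured genes. Gene expression was recorded on 8 Agilent 2-colour arrays. Every rat was an adult male Wistar, 120 ± 12 days old, and the RNA of both channels came from castrated animals, so castration is shared by the groups compared. The control RNA carried no testosterone label, and the treated RNA came from rats injected once under the skin with testosterone propionate, an ester of testosterone, at 4 mg/kg in 1 mL/kg of corn oil. Treated and control RNA were hybridised together on 4 arrays at 8 h and on 4 arrays at 24 h. The treated RNA was in Cy3 on replicates 1 and 2 and in Cy5 on replicates 3 and 4 at 8 h, and the other way round at 24 h. The series title names muscle atrophy, but the labels name neither the muscle nor an oil-injected control, and they do not say whether an array holds 1 animal or a pool. The p-values therefore measure the spread between these arrays, which may be technical.

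Ribosomes are built in the nucleolus, where RNA polymerase I copies the ribosomal DNA into a long precursor. Box C/D and box H/ACA snoRNA particles then guide its methylation and pseudouridylation, and assembly factors fold, cut and package it into the small and large subunits. Ribosome number is one determinant of the capacity for protein synthesis in muscle, and ribosome biogenesis is known to accompany muscle growth.

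Fbl and Pes1 were the only 2 of the 26 measured factors past the threshold at 24 h, and their promoter windows are shown because they moved in opposite directions. The windows run from 250 bases before the annotated start to 30 bases after it and come from RefSeq, build GRCr8. Both lie on the plus strand, Fbl at chr1:92597157-92597436 and Pes1 at chr14:83074096-83074375. Capitals mark CACGTG, the E-box bound by Myc family proteins, and CCGGAAG or its complement CTTCCGG, a form of the site bound by ETS family proteins. Other and shorter forms of the ETS site were not searched for and are not marked.
Fbl: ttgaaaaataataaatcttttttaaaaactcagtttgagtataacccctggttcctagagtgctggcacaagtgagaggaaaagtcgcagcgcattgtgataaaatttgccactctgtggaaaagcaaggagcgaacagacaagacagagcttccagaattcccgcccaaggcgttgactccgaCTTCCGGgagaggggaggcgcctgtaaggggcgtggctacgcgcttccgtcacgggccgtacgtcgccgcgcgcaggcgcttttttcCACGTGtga
Pes1: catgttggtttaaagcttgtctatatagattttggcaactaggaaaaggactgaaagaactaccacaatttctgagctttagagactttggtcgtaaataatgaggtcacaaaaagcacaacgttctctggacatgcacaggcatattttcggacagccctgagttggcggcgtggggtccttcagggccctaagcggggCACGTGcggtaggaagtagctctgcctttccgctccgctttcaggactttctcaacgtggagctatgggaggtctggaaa
In the Fbl window the E-box began at position 22 and CTTCCGG at position -66, counted from the start. In the Pes1 window the E-box began at position -50, and neither CCGGAAG nor CTTCCGG was found. AGAACA, 1 arm of the palindrome bound by the androgen receptor, was in neither window. Promoter windows were matched for 31 of the 34 factors, including some that were not measured, such as Rrp12, Utp20 and Tsr1. The comparison set of measured genes leaves genes that were not measured out. All windows were searched on both strands over 300 bases, from 250 before the start to 50 after it. CACGTG, which reads the same on both strands, was in 10 of the 31 windows (32.3%), against 9.18% of the 6609 windows of measured genes and 6.42% of all 33465 windows. CCGGAAG was in 12 of the 31 (38.7%), against 17.2% and 8.75%, and AGAACA was in 6 (19.4%), against 13.2% and 20.7%. In the factors' windows no match of one motif overlapped a match of another. The median GC content was 59.7% for the factors, 60.7% for measured genes and 51.7% for all windows. These matches describe the letters of the windows. One E-box window belonged to the factor that rose and another to the factor that fell.

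Across the 26 measured factors, treated and control RNA differed little at either time. Values are log2 ratios of treated over control, after a background correction that adds 50 to each intensity, which draws the ratios of dim spots towards 0. A gene counted as changed when its adjusted p was below 0.05 in limma's test over all 10864 genes. At 8 h, 0 of the 26 factors passed, beside 3 genes in all (0.0276%). At 24 h, 2 of 26 passed (7.69%), beside 7.08% of all genes. One of them was higher, beside 4.15% of all genes, and 1 was lower, beside 2.93%. In the test of the 24 h ratio against the 8 h ratio, 0 of 26 passed, beside 1.3% of all genes. The share of factors that changed at 24 h was thus near that of all genes.

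The factors' ratios were centred near those of the other genes at 24 h. Their median log2 ratio at 24 h was 0.01, beside 0.00 for all genes, and 13 of 26 lay above 0. At 8 h their median was 0.06, beside -0.01, with 18 of 26 above 0, compared with 46.7% of all genes. The 8 h ratios ran from -0.14 for Ddx18 to 0.26 for Nip7, and the 24 h ratios from -0.56 for Pes1 to 0.36 for Ddx21. Their SD across factors was 0.10 at 8 h, beside 0.17 for all genes, and 0.20 at 24 h, beside 0.22. By SD the factors thus spread less than genes in general at 8 h, where all genes ran from -1.55 to 1.17, and about as widely at 24 h. The median absolute ratio, which far values move less, was 0.083 at 8 h, beside 0.097 for all genes. At 24 h it was 0.095, beside 0.096.

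**Figure D1:**
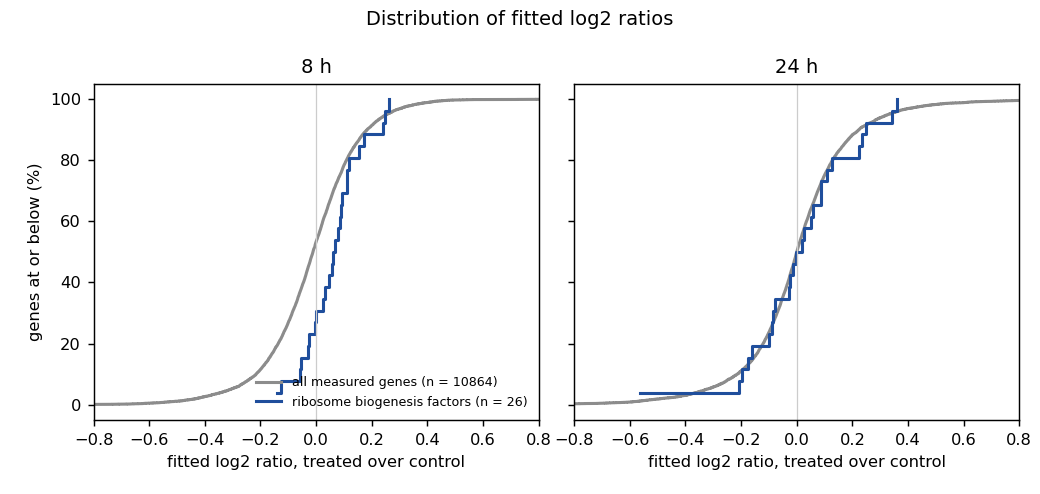
Cumulative share of genes (y axis, percent) at or below each fitted log2 ratio of treated over control (x axis) at 8 h and 24 h, for the 26 measured ribosome biogenesis factors (blue) and all 10864 measured genes (grey). The blue line lies to the right of the grey one over most of its range at 8 h, with medians of 0.06 and -0.01, and runs along it at 24 h, with Pes1 as the isolated low value at -0.56.

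The same held array by array. The median over the 26 factors was 0.02, 0.07, 0.02 and 0.08 on replicates 1 to 4 at 8 h. All 4 lay above the all-gene medians of -0.05, -0.01, 0.01 and 0.00. At 24 h the factors' medians were 0.06, 0.01, -0.10 and 0.07, on both sides of 0. Replicate 1 at 8 h had the widest spread, with an SD over all genes of 0.444, where the other 3 arrays of that time had 0.180 to 0.201. Correlations of the factors' ratios between arrays, over 26 genes that share arrays and dyes, ran from 0.11 to 0.64 for the 6 pairs at 24 h and from -0.23 to 0.43 for the 6 pairs at 8 h. Over all genes the same pairs ran from 0.23 to 0.71 at 24 h and from -0.13 to 0.37 at 8 h, so the closer likeness of the 24 h arrays was shared by genes in general.

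**Figure D2:**
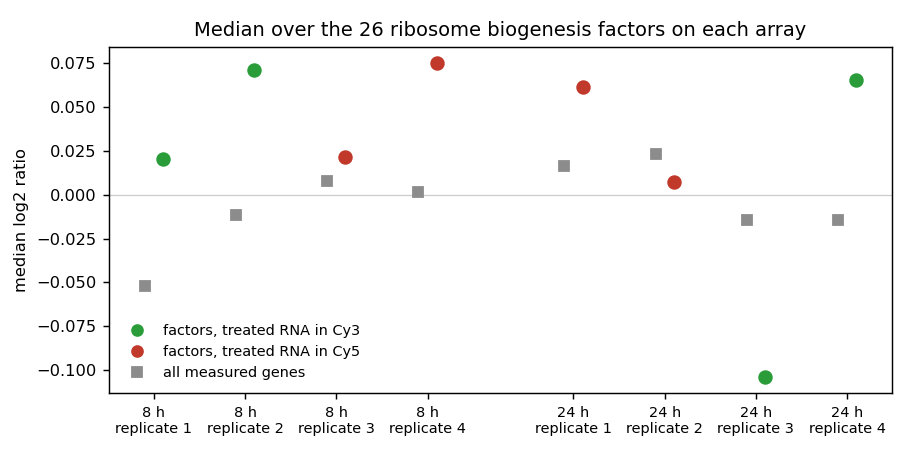
Median log2 ratio of treated over control (y axis) on each of the 8 arrays (x axis) over the 26 ribosome biogenesis factors (circles, coloured by the dye of the treated RNA) and over all measured genes (grey squares). The factors' medians lie between 0.02 and 0.08 on the 8 h arrays and between -0.10 and 0.07 on the 24 h arrays.

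Looser criteria gave counts near the background in most cases. At an unadjusted p under 0.05, 1 of 26 factors (3.85%) passed at 8 h, beside 17.1% of all genes, 6 of 26 (23.1%) at 24 h, beside 22% of all genes, and 4 of 26 (15.4%) in the difference between times, beside 16.2%. The 8 h ratio had the same sign on all 4 arrays for 5 of 26 factors (19.2%), beside 21.4% of all genes, and the 24 h ratio for 8 of 26 (30.8%), beside 29%. At 24 h the mean ratio had the same sign with the treated RNA in either dye for 16 of 26 (61.5%), beside 58.3%. The ranges of treated and control levels did not overlap for 0 of 26 factors at 8 h, beside 5.7% of all genes. At 24 h they did not overlap for 5 of 26 (19.2%), beside 11.3%. The 5 were Pes1, which was lower in treated RNA, and Fbl, Nop16, Nop2 and Nolc1, which were higher.

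**Figure D3:**
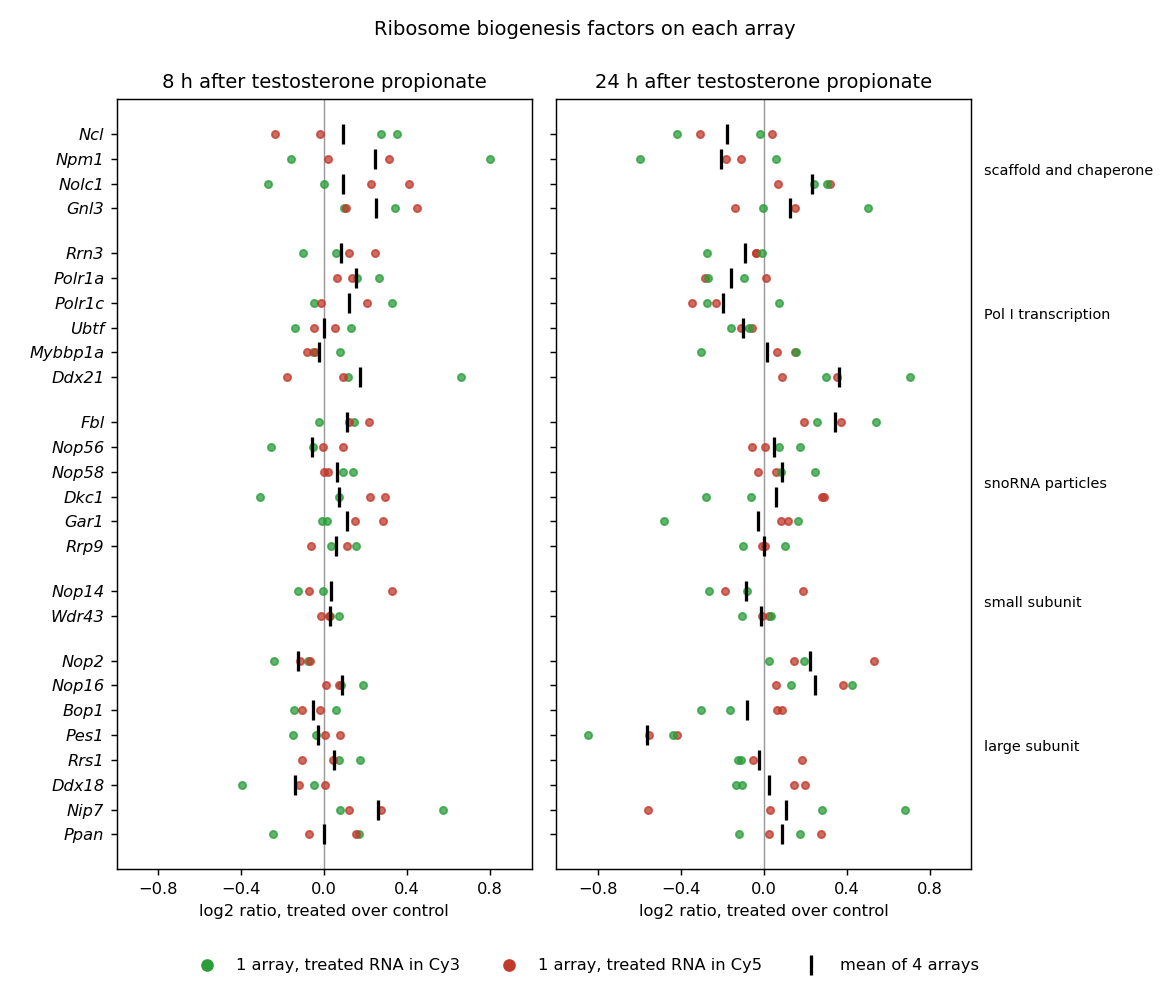
Log2 ratio of treated over control (x axis) for the 26 measured ribosome biogenesis factors (rows, grouped by role) on the 4 arrays at 8 h and the 4 arrays at 24 h. Each circle is 1 array, coloured by the dye of the treated RNA, and the black bar is the mean of 4 arrays. At 24 h, Pes1, Rrn3 and Ubtf are below 0 and Fbl, Ddx21, Nop16, Nop2 and Nolc1 above 0 on all 4 arrays.

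Among the large-subunit assembly factors, Pes1 fell and the other 7 measured did not pass the test at 24 h. Pes1 (pescadillo) forms the PeBoW complex with Bop1 and Wdr12, which is needed to process the precursor of the large-subunit rRNAs. Its probe lies at chr14:84632771-84632830 on the plus strand in the array's annotation, build rn4. At 24 h its log2 ratios were -0.56, -0.42, -0.44 and -0.85, all below 0. The 4 arrays at 8 h gave -0.04, -0.15, 0.08 and 0.00. The 24 h values lay below every 8 h value. At 24 h its normalized log2 level was 7.97 to 8.44 in control RNA and 7.48 to 7.59 in treated RNA, with no overlap. The fitted ratio at 24 h was -0.56 (SE 0.078; SD 0.20, n = 4; 95% interval -0.74 to -0.39), 1.48-fold lower in treated RNA, with limma's adjusted p = 0.00299. At 8 h it was -0.03 (SD 0.095, n = 4; adjusted p = 0.871 in limma). The 24 h ratio minus the 8 h ratio was -0.54, with limma's adjusted p = 0.0503. The call at 24 h held with each array left out, with adjusted p from 0.00223 to 0.0361 in limma, and ended when arrays were centred on their median without loess, at -0.29 and adjusted p = 0.283, where the median of all genes was 0.16. In these bulk samples, fewer cells of a type and less RNA per cell cannot be told apart.

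The partners of Pes1 in the PeBoW complex were dim. Bop1 was well above background on 0 control and 1 treated arrays at 8 h, and on 2 control and 4 treated arrays at 24 h, with ratios of 0.06, 0.09, -0.16 and -0.30 at 24 h, on both sides of 0. Its fitted 24 h ratio was -0.08 (SD 0.19, n = 4; 95% interval -0.25 to 0.09; adjusted p = 0.615 in limma). Wdr12 was well above background on at most 2 of 4 arrays of a group and was not tested. The difference between Pes1 and Bop1 was not tested.

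**Figure D4:**
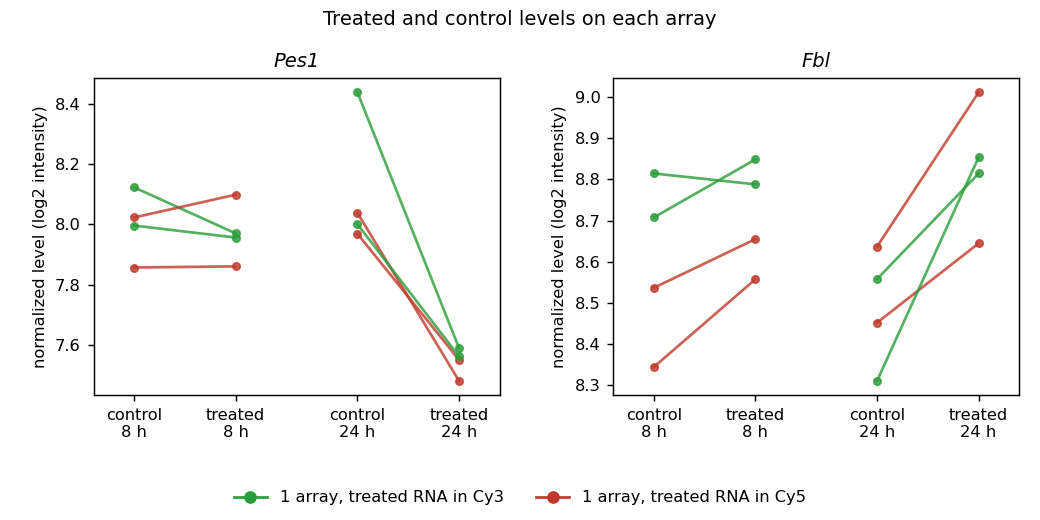
Normalized level (y axis, log2 intensity) of Pes1 and Fbl in control and treated RNA at 8 h and 24 h (x axis). Each line joins the 2 channels of 1 array and is coloured by the dye of the treated RNA. At 24 h all 4 Pes1 lines go down and all 4 Fbl lines go up, in both dye orientations, and at 8 h the channels overlap.

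Nop2 had ratios of opposite sign at the 2 times. It methylates a cytosine of the large-subunit rRNA. Its ratios were -0.24, -0.08, -0.07 and -0.12 at 8 h, all below 0, and 0.53, 0.15, 0.03 and 0.19 at 24 h, all above 0. The fitted ratio was -0.13 at 8 h (SD 0.080, n = 4) and 0.22 at 24 h (SD 0.22, n = 4; adjusted p = 0.131 in limma), and the difference between times of 0.35 did not pass (adjusted p = 0.157 in limma). With median centring the 8 h ratio of Nop2 stood at 0.17, where the median of all genes was 0.12, so its sign at 8 h depends on the centring. A second Nop2 probe was well above background on 0 of 4 control arrays at 24 h, and its ratios of -0.15, 0.22, 0.09 and -0.07 lay on both sides of 0.

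Nop16, a nucleolar factor of the large subunit and a known Myc target, was above 0 on all 8 arrays. The 8 h ratios were 0.08, 0.19, 0.07 and 0.01, and those at 24 h were 0.38, 0.06, 0.13 and 0.42. The fitted 24 h ratio was 0.25 (SD 0.18, n = 4), with adjusted p = 0.0914 in limma. Nip7, which acts in maturation of the large-subunit precursor, had the largest ratio at 8 h but scattered widely. The 8 h arrays gave 0.57, 0.08, 0.12 and 0.27, and the 24 h arrays gave 0.03, -0.56, 0.28 and 0.68, with an SD of 0.52 at 24 h. The remaining large-subunit factors were Rrs1, which helps to bring the 5S RNA particle into the subunit, Ddx18, an RNA helicase, and Ppan, a Brix-domain protein. At 24 h their fitted ratios were -0.03, 0.03 and 0.09. The differences within this group at 24 h were thus those of Pes1 below 0 and, without passing the test, Nop16 and Nop2 above 0.

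Among the 6 snoRNA particle proteins, Fbl rose at 24 h and 5 did not pass. Fbl (fibrillarin) is the methyltransferase of the box C/D particles. Its probe lies at chr1:83280992-83281051 on the plus strand, build rn4. Its ratios at 24 h were 0.37, 0.19, 0.26 and 0.54, all above 0, and at 8 h -0.03, 0.14, 0.12 and 0.21. At 24 h its normalized log2 level was 8.31 to 8.64 in control RNA and 8.64 to 9.01 in treated RNA, and the ranges met without overlapping. The fitted ratio at 24 h was 0.34 (SE 0.078; SD 0.15, n = 4; 95% interval 0.17 to 0.52), 1.27-fold higher, with limma's adjusted p = 0.0303. The 8 h ratio was 0.11 (adjusted p = 0.459 in limma), and the difference between times of 0.23 did not pass (adjusted p = 0.341 in limma). The call at 24 h depended on single arrays. It ended without 8 h replicate 3 (adjusted p = 0.0575 in limma), and without 24 h replicate 1, 2, 3 or 4 (adjusted p = 0.166, 0.0559, 0.0769 and 0.136), while the ratio stayed between 0.26 and 0.40. It also ended with the scanner's processed signals (0.29, adjusted p = 0.217 in limma) and with median centring (0.69, adjusted p = 0.0674).

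The core partners of Fbl did not pass at 24 h. Nop56 and Nop58, which sit with fibrillarin on box C/D snoRNAs, had fitted ratios of 0.05 and 0.09. The second probe of Nop56 stood at 0.30, with adjusted p = 0.0502 over all probes in limma, so the 2 probes of this gene differed in size. In the fit over all 12053 probes, 2 of 31 probes of the factors passed at 24 h, beside 6.91% of all probes. Rrp9, a protein of the U3 particle, stood at -0.00, and the box H/ACA proteins Dkc1, the pseudouridine synthase, and Gar1 stood at 0.06 and -0.03. The Gar1 value held 1 distant array, -0.48 on replicate 3 beside 0.08 to 0.17 on the others. Dkc1 split by dye at both times. At 24 h the 2 arrays with treated RNA in Cy5 gave 0.28 and 0.29, and the 2 arrays of the other orientation gave -0.28 and -0.06. At 8 h the Cy5 arrays gave 0.22 and 0.29, and the Cy3 arrays -0.31 and 0.07. Of the box C/D proteins, the chosen probe passed for Fbl alone, and its difference from Nop56 and Nop58 was not tested.

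None of the 6 measured factors of RNA polymerase I transcription passed at 24 h. Ddx21, an RNA helicase that senses polymerase I transcription and also acts in rRNA processing, had the highest ratio of all 26 factors. Its ratios at 24 h were 0.35, 0.09, 0.30 and 0.71, all above 0, and at 8 h 0.66, 0.12, -0.18 and 0.09. The fitted 24 h ratio was 0.36 (SE 0.107; SD 0.26, n = 4; 95% interval 0.12 to 0.60), with adjusted p = 0.0752 in limma. It passed without 8 h replicate 1 (adjusted p = 0.0288) and without 8 h replicate 2 (adjusted p = 0.0468). Polr1a, the largest subunit of polymerase I, was above 0 on all 4 arrays at 8 h, at 0.27, 0.16, 0.14 and 0.06. At 24 h, when it was well above background on 3 control arrays and 1 treated array, it stood at 0.01, -0.29, -0.27 and -0.10, and the difference between times of -0.31 did not pass (adjusted p = 0.172 in limma). Polr1c, shared with RNA polymerase III, had fitted ratios of 0.12 at 8 h and -0.20 at 24 h. Both subunits thus had positive fitted ratios at 8 h and negative ones at 24 h, and neither time nor their difference passed.

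Rrn3, the factor that makes polymerase I competent to start, had ratios of 0.06, -0.10, 0.24 and 0.12 at 8 h and -0.04, -0.04, -0.27 and -0.01 at 24 h. It was dim, well above background on 2 control and 3 treated arrays at 8 h, and on 3 control and 3 treated arrays at 24 h. Its fitted 24 h ratio was -0.09 (adjusted p = 0.525 in limma), with replicate 3 apart from the other 3 arrays. Ubtf, which holds ribosomal DNA open for transcription, had ratios of -0.14, 0.13, -0.05 and 0.05 at 8 h. At 24 h they were -0.06, -0.11, -0.07 and -0.16, all below 0, with a fitted ratio of -0.10 (SD 0.045, n = 4; 95% interval -0.25 to 0.05; adjusted p = 0.456 in limma). Its second probe stood at -0.11 at 24 h, with 1 array above 0. At 8 h the second probe was above 0 on all 4 arrays, at 0.13, where the fitted ratio of the chosen probe was -0.00. Mybbp1a, a nucleolar repressor, stood at 0.02. Apart from Ddx21, the fitted 24 h ratios of the transcription factors and subunits lay between -0.20 and 0.02.

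The 4 nucleolar scaffold and chaperone proteins did not pass at either time. Ncl (nucleolin), an abundant RNA-binding protein of the nucleolus, had ratios of 0.35, 0.28, -0.24 and -0.02 at 8 h and 0.04, -0.31, -0.42 and -0.02 at 24 h. Npm1 (nucleophosmin), a histone and ribosome chaperone, had 0.80, -0.16, 0.02 and 0.31 at 8 h and -0.18, -0.11, -0.60 and 0.06 at 24 h. Arrays fell on both sides of 0 for both genes at both times. The fitted ratio of Npm1 was 0.24 at 8 h and -0.21 at 24 h, a difference of -0.45 (adjusted p = 0.335 in limma), and that of Ncl was 0.09 and -0.18.

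Gnl3 (nucleostemin), a GTP-binding nucleolar protein, was above 0 on all 4 arrays at 8 h, at 0.34, 0.10, 0.10 and 0.45. Its fitted 8 h ratio was 0.25 (SD 0.18, n = 4; adjusted p = 0.282 in limma). At 24 h it stood at 0.15, -0.14, -0.00 and 0.50. Nolc1, a chaperone of snoRNA particles, was above 0 on all 4 arrays at 24 h, at 0.07, 0.32, 0.24 and 0.30, with a fitted ratio of 0.23 (SD 0.12, n = 4; adjusted p = 0.190 in limma). Its second probe gave -0.08, 0.25, -0.05 and -0.10 at 24 h, with 3 arrays below 0 and a fitted ratio of 0.01. The 2 probes of Nolc1 thus differed in size, and in sign on most arrays.

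The small-subunit factors were the least covered. Nop14 and Wdr43, parts of the machinery that assembles on the 5′ end of the precursor, were measured and had fitted 24 h ratios of -0.09 and -0.01. Utp20 and Heatr1, large proteins of the same machinery, were well above background on 0 arrays, and Rrp12 and Tsr1 had no probe of their name. Of the other factors, Polr1b, the second largest polymerase I subunit, and Noc2l were well above background on 0 arrays, and Rrp1b on 1 treated array at 24 h. The 6 dim factors were left out of the test. The small subunit was therefore described by 2 of its 6 factors.

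Genes of the pathway outside these factors gave the same background-level count. Of 183 other genes with a probe, 118 were measured, 0 passed at 8 h or between times, and 5 (4.24%) passed at 24 h, beside 7.08% of all genes. The median 24 h ratio over the 118 was -0.00, and the median 8 h ratio was 0.07. Polr1d, a subunit shared by RNA polymerases I and III, rose on all 4 arrays, with ratios of 0.37, 0.17, 0.52 and 1.01 and a fitted 24 h ratio of 0.52 (adjusted p = 0.0312 in limma). Mphosph6, a protein of the rRNA-trimming exosome, rose by 0.39 (adjusted p = 0.0403), and Rps6kb1, the S6 kinase downstream of mTOR, by 0.41 (adjusted p = 0.0290). Mnt, a repressor that competes with Myc, fell by 0.33 (adjusted p = 0.0310). Nob1, the nuclease that trims the small-subunit rRNA, fell by 0.26 (adjusted p = 0.0477). Each of these 5 calls ended with 24 h replicate 1, 3 or 4 left out, and each passed in 10 to 13 of 19 settings. These 19 are not independent. They include the main fit itself, with factors also named through RefSeq, where a pass was fixed in advance. The processed signals and the authors' values, which are nearly identical, both count among them. Those of Mnt, Nob1 and Rps6kb1 also ended without 24 h replicate 2, those of Mnt, Mphosph6, Nob1 and Rps6kb1 without 8 h replicate 3, and those of Mphosph6 and Nob1 without 8 h replicate 4.

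By list at 24 h, 1 of 7 other polymerase I genes, 1 of 16 exosome and cleavage genes and 1 of 15 regulators rose, and 1 of 35 other small-subunit genes and 1 of 15 regulators fell. None of 33 other large-subunit genes and none of 12 other snoRNA particle genes passed. In those lists the smallest p-values belonged to Rrp15 at 0.26 and Zfp593 at 0.22, and to Snu13, a box C/D core protein, at 0.17 and Smn1, which assembles RNA-protein particles, at -0.31. Of the whole pathway, the factor with the lowest 24 h ratio was Pes1.

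**Figure D5:**
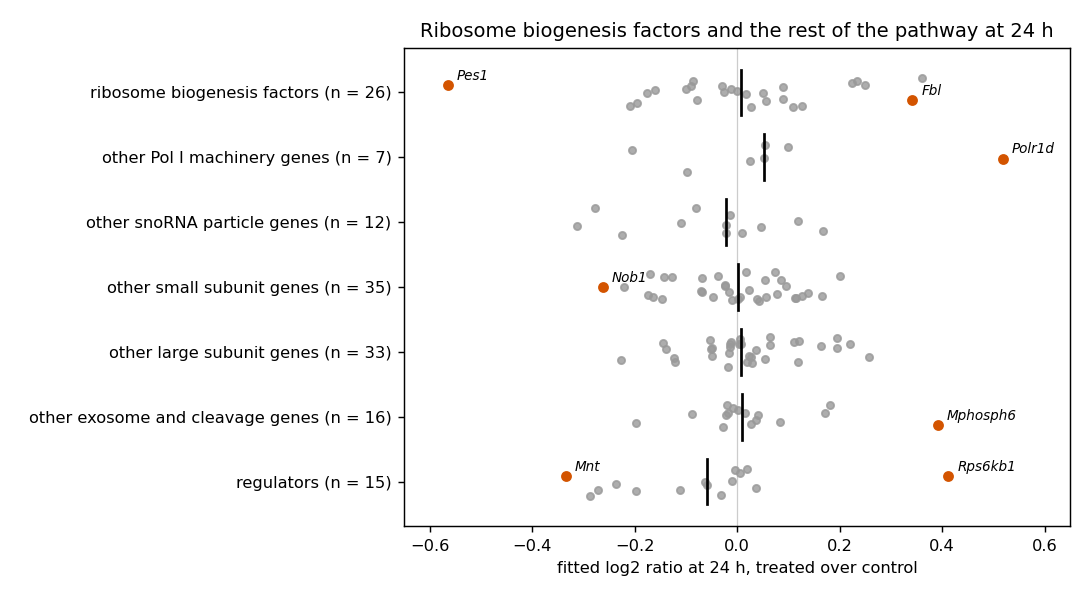
Fitted log2 ratio of treated over control at 24 h (x axis) for the 26 ribosome biogenesis factors and 118 other pathway genes in 6 lists (y axis). Each circle is a gene, orange and named where its adjusted p was below 0.05, and black bars are list medians. The medians lie near 0, and 2 of the 26 factors and 5 of the 118 other genes are orange.

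Some markers of the tissue and of other cell types moved at 24 h beside these results. Of the genes listed as defining muscle, all 13 found on the array were measured. Their summed level was 211170 to 242226 intensity units in control RNA and 166922 to 184947 in treated RNA at 24 h, and 2 of 13 fell. Of 13 measured macrophage genes, 5 rose, and the summed level was 5823 to 7005 in control and 7508 to 9507 in treated RNA. Of 12 measured fibroblast and matrix genes, 6 rose, and the summed level was 6034 to 8082 in control and 10572 to 17780 in treated RNA. Those that rose were the matrix genes Col1a1, Col1a2, Col3a1, Col5a2, Sparc and Postn. The other 6 did not pass and stood between -0.25 for Lum and 0.15 for Fn1, with Pdgfra at -0.03 and Dcn at -0.00. In other lists, Fabp4 (1 of 4 adipocyte genes), Kdr (1 of 5 endothelial genes) and Myog (1 of 5 satellite cell and myoblast genes) rose at 24 h, by 0.43, 0.36 and 0.37 (adjusted p = 0.00385, 0.0414 and 0.0397 in limma). The median 24 h ratios of these 3 lists were 0.41, 0.01 and 0.07. The endothelial genes ran from -0.27 for Cdh5 to the 0.36 of Kdr, so that list did not move as a whole. None of the 3 measured erythrocyte genes passed at either time, but their median ratio varied between arrays. It was 1.61 on replicate 3 at 24 h, beside 0.10 to 0.18 on the other arrays of that time. On replicates 1 to 4 at 8 h it was -1.42, 0.39, -2.18 and -0.09. At 8 h the median ratio of the macrophage genes was -0.31, with 0 of 13 past the threshold. Of 16 proliferation genes on the array, 11 were well above background on no array, and 0 of the 5 measured passed at 24 h. Of 8 genes of accessory glands and epithelium, none was well above background on any array. The part of these shifts in the changes of Pes1 and Fbl was not tested. The 4 arrays of each time may lie on 1 slide, so the effects of slide and time may not be separable.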

How the data were processed

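Trizol RNA was labelled by the Quick Amp method, per the labels' protocols, and the submitters' processing notes name Agilent Feature Extraction 9.5.3.1. The deposited scanner files hold, per the file headers, raw linear intensities (mean of the spot, median of its local background) and processed intensities, which are background-corrected and dye-normalized. The authors' deposited log2 values carry no statement of scale, centring or direction; they equalled the log2 ratio of the processed signals, treated over control, with a largest difference of 1.35e-05.

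In limma 3.58.1 under R 4.3.3, raw signals received normexp background correction with an offset of 50 and within-array loess. Spots flagged as outliers, 731 to 927 of 42877 gene spots per array, and control spots were dropped. A probe was kept if well above background on at least 3 of 4 arrays in 1 of the 4 RNA groups, which left 12060 of 30367 probes, and a gene was represented by its brightest kept probe. The fit held both times and a dye coefficient on all 8 arrays, with Benjamini-Hochberg adjustment over all genes at 0.05. Channel levels used loess and Aquantile normalization. The script was tested on simulated ratios.

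The factors and lists were chosen with earlier results of these data known. Factors were described in full if they passed the test, had one of the 4 largest ratios in a contrast, or were Ncl, Npm1, Fbl, Rrn3, Polr1b or Ubtf. Gene names follow the array and RefSeq (GRCr8). Alternatives covered background correction, centring, filters, dye, array weights, a replicate block, probe choice and arrays left out.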

Additional observations from a re-analysis of the deposited data

Results flagged for a closer look

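Rrn3 stood at -0.27 on replicate 3 at 24 h, where the other 3 arrays lay between -0.04 and -0.01. Gar1 stood at -0.48 on the same array, where the other 3 lay between 0.08 and 0.17. Both values lay far from the rest of their 4 arrays. Of 52 groups of 4 arrays examined, these were the 2 with such an array, and chance gives about 5%. Nop2 had a difference of 0.35 between the 24 h and the 8 h ratio, with all 4 arrays below 0 at 8 h and all 4 above 0 at 24 h. The difference did not pass limma's test (adjusted p = 0.157). With median centring the fitted 8 h ratio of Nop2 stood at 0.17, where the median of all genes was 0.12.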

How the results depend on the processing

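Pes1 and Fbl kept their sign at 24 h under every alternative run. Signs of factors that did not pass were less stable. With median centring, 8 of 26 turned at 24 h and 6 of 26 at 8 h. Npm1, Ncl and Ubtf then stood at 0.17, 0.11 and 0.17 at 24 h. The median of all genes itself stood at 0.16 at 24 h and 0.12 at 8 h in that setting. Without 24 h replicate 4, 6 of 26 turned at 24 h. At 8 h, 3 genes passed in the main setting, 1 with processed signals, with the authors' values or without the dye coefficient, 0 with median centring, 8 with the replicate block, and 0 to 1237 with 1 array left out (1237 without 8 h replicate 2); 0 of 26 factors passed under any of these. At 24 h, 769 genes passed (451 higher, 318 lower), 401 with median centring (383 higher, 18 lower), 1608 with array weights, and 192 to 1235 with 1 array left out. Of the factors, 2 passed, 1 with processed signals or the authors' values (Pes1), 0 with median centring, 4 with array weights (Pes1, Fbl, Nop16 and Ddx21), and 1 to 3 with 1 array left out, Pes1 in each. Between times, 141 genes passed, 86 with processed signals or the authors' values, 0 with median centring, 302 with array weights, 308 with the replicate block, and 28 to 600 with 1 array left out. Pes1 was the 1 factor that passed between times without background correction, without the filter, with array weights, with the mean over probes, and without 8 h replicate 2. The mean of the 4 array medians over factors was 0.047 at 8 h (0.26 with median centring, 0.078 with processed signals) and 0.01 at 24 h (0.23 with median centring). The cause of these changes was not tested. The replicate numbers were not taken to pair the arrays: deviations of same-numbered arrays, which carry opposite dyes, correlated at -0.26, 0.17, -0.16 and -0.08. After the dye coefficient these were 0.28, 0.19, 0.31 and 0.34, beside 0.23, 0.17, 0.25 and 0.30 for other numbers of opposite dye, so a weak pairing is possible. With the replicate block, 833 genes and 3 factors passed at 24 h, Ddx21 being added (adjusted p = 0.0342 in limma). Dim spots limit the small-subunit factors most.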
